A study of Bos taurus with 15 samples.

Results

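The cells described here were chosen as proliferating epithelial cells of the intestine of newborn (NB) cattle, a name that their other markers bear out only in part, as given below. They were barcodes of the duodenum, jejunum, ileum, cecum, colon, and rectum NB libraries with 500 to 4000 genes, fewer than 50000 unique molecular identifiers (UMIs, each standing for 1 counted transcript), and at least 1 UMI each of EPCAM and MKI67. Barcodes with any UMI of PTPRC, a leukocyte gene, or of COL1A2, a fibroblast gene, were left out. A total of 1224 cells met the rule, of 7901 cells that passed the same gate with or without MKI67, of 47981 barcodes within the gene and UMI limits, and of 172405 barcodes in the series. The 6677 EPCAM cells without MKI67 were the contrast. The rule itself used EPCAM, MKI67, PTPRC, and COL1A2, so the levels of these genes are given as a description.

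The intestinal epithelium is a single cell layer that is renewed throughout life. Stem cells at the base of the crypts divide and give transit-amplifying cells, which divide further and then leave the cycle as absorptive enterocytes or as secretory goblet, enteroendocrine, and tuft cells. EPCAM is an adhesion protein of epithelial cells, and MKI67 encodes Ki-67, a protein that coats chromosomes in mitosis and is present in all phases of the cycle except rest. DNA replication enzymes peak in S phase, and the mitotic genes peak in G2 and M.

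The series holds 15 single-cell RNA sequencing libraries of Holstein cattle, 11 from NB calves and 4 from the adult (AD) intestine. The NB tissues came from 3 calves, but which calf gave which library is not given in the sources used here, nor is the age of the calves in days, and the AD intestine came from a single lactating cow. The outer muscle layers were removed, and the cells were dissociated with enzymes. No animal was treated or genetically altered as far as the labels state. Small intestine here means the duodenum, jejunum, and ileum, and large intestine means the cecum, colon, and rectum, with 3 NB libraries each. Each tissue gave 1 library, so the 3 libraries of a region are different tissues, and p-values measure the spread between them, which may hold differences between calves. The 6 NB intestinal libraries held 62529511 to 117505536 UMIs. The intervals below cover counting error only.

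The 6 libraries gave the proliferating cells in unequal numbers. The duodenum held 479 of them, the jejunum 258, the ileum 213, the cecum 50, the colon 147, and the rectum 77. Their median depth was 13503 UMIs in the duodenum, 14819 in the jejunum, 10986 in the ileum, 7434 in the cecum, 9492 in the colon, and 7079 in the rectum. The cells without MKI67 had 10354.5, 9737, 9335.5, 6140, 7896, and 7483 UMIs in the same order, so the proliferating cells were the deeper class in 5 of 6 libraries. Median mitochondrial shares were 23.4% in proliferating and 12.8% in other cells of the rectum, 12.5% and 7.99% in the colon, and 10.8% and 12.7% in the duodenum. Over the study's limit of 40% mitochondrial UMIs were 15 of 50 proliferating and 44 of 316 other cells in the cecum, and 18 of 77 and 105 of 720 in the rectum. A barcode sequence of 19 proliferating cells also occurred in another of the 6 libraries, and 1 of these was a proliferating cell there too.

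The epithelial label held best in the duodenum and jejunum and held only in part in the ileum and the large intestine. KRT8, a keratin of simple epithelia, was detected in 88.7% of proliferating cells in the duodenum and 93.0% in the jejunum, but in 54.0% in the ileum, 68.0% in the cecum, 69.4% in the colon, and 71.4% in the rectum. The cells without MKI67 had 81.3%, 74.4%, 64.8%, 73.1%, 77.8%, and 68.2% from duodenum to rectum. Detection also depends on depth, which differed between libraries. COL3A1, a fibroblast gene, was found in 20.5%, 38.0%, and 54.5% of proliferating cells of the jejunum, cecum, and rectum. The others had 17.5%, 47.2%, and 52.8%, and whether this was free RNA was not tested. A B or T cell marker (CD79A, CD79B, MS4A1, PAX5, CD3D, CD3E, or CD3G) was present in 0.418% and 0.775% of proliferating cells in the duodenum and jejunum. The same share was 52.6% in the ileum, 8.0% in the cecum, 27.2% in the colon, and 10.4% in the rectum. PTPRC at 0 UMIs therefore did not remove all cells with lymphocyte transcripts, and the cells are called proliferating cells below by the rule alone.

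A stricter epithelial gate, at least 3 UMIs summed over CDH1, KRT8, KRT18, and KRT19 and called the keratin gate below, separated these cells in part. It kept 435 proliferating cells in the duodenum, 239 in the jejunum, 119 in the ileum, 33 in the cecum, 114 in the colon, and 57 in the rectum. In the ileum, 94 of 213 proliferating cells were under it, and 91.5% of these carried a B or T cell marker. The 10 B and plasma cell genes summed to 1272 CPM (UMIs of the genes per 1000000 UMIs of the cells summed) in the ileum, 2331 in the cecum, and 524 in the colon. In the cecum most of this was JCHAIN, the joining chain of secreted antibodies, at 2190 CPM. The keratin gate lowered the sums to 45.4, 26.6, and 34.3 CPM, while in the duodenum they were 5.03 CPM before and 4.25 CPM after. Values with the keratin gate are therefore given beside many of the results it moves.

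**Figure D1:**
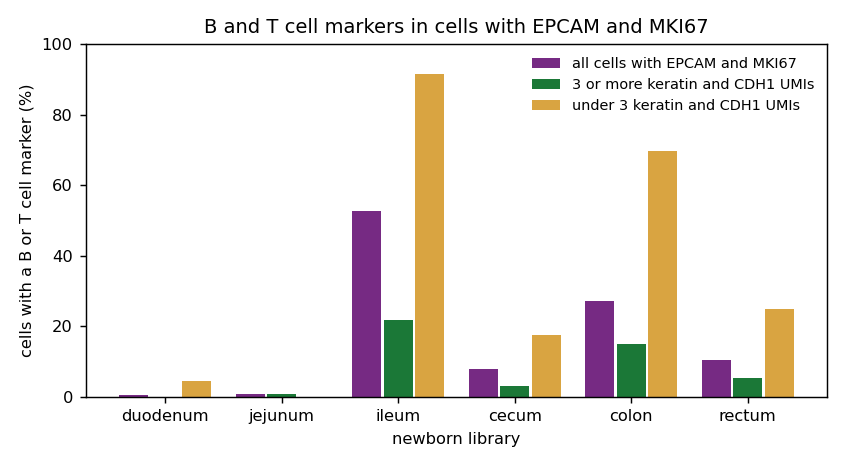
Share of cells with EPCAM and MKI67 that carried at least 1 UMI of a B or T cell marker (y axis, %) in the 6 newborn libraries (x axis), for all of these cells and for those with at least 3 or under 3 UMIs over CDH1, KRT8, KRT18, and KRT19. The ileum bar for all cells stands at 52.6% and that for cells under the keratin gate at 91.5%, while the duodenum and jejunum stay under 5%.

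Free RNA gives a cell UMIs of genes that it does not express. MKI67 was found in 2.94% to 5.0% of smooth muscle barcodes of the 6 libraries, at median depths of 5099 to 8498 UMIs. Whether some of these were dividing cells was not tested. EPCAM was found in 5.53% to 16.5% of PTPRC barcodes and in 4.77% to 21.6% of COL1A2 barcodes. A single UMI of either gene is therefore weak evidence. The proliferating cells had a median of 2 MKI67 UMIs in 5 libraries and 1 in the rectum, and 35.7% (jejunum) to 51.9% (rectum) had exactly 1. EPCAM rested on 1 UMI in 8.14% of proliferating cells in the duodenum and 4.26% in the jejunum, against 40.8% in the ileum and 44.0% in the cecum.

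The upper limit of 4000 genes left out 966 cells that met every other part of the rule, 439 of them in the duodenum. Just inside the limit, the 146 duodenal proliferating cells at most 500 genes below it had a median of 3 MKI67 UMIs, and the 150 cells at most 500 genes above it had 6. In the rectum the medians were 1 in 10 cells inside and 5 in 22 cells outside. The median was higher outside in 5 libraries, and the cecum went the other way, with 2 in 11 cells inside and 1 in 16 cells outside.

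The share of EPCAM cells with MKI67 was highest in the ileum and lowest in the rectum. It was 12.5% (exact binomial 95% interval 11.5 to 13.6) in the duodenum, 19.9% (17.8 to 22.2) in the jejunum, and 32.6% (29.0 to 36.4) in the ileum. The large intestine had 13.7% (10.3 to 17.6) in the cecum, 15.1% (12.9 to 17.5) in the colon, and 9.66% (7.70 to 11.9) in the rectum. In order of the shares, the intervals of the rectum, duodenum, cecum, and colon overlapped each with its neighbor, while the jejunum lay above the colon and below the ileum. With the keratin gate the ileum gave 29.5% and the jejunum 24.7%, with overlapping intervals, so their order is not clear of counting error there. Without the upper limit on genes the shares from duodenum to rectum were 19.8%, 28.4%, 39.3%, 20.0%, 21.8%, and 14.4%. With at least 2 MKI67 UMIs asked of a proliferating cell they were 7.86%, 13.8%, 23.2%, 8.14%, 8.74%, and 4.89%. The level of a share thus depends on these limits, while the ileum was the highest and the rectum the lowest under both.

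The mean share was 21.7% ± 10.2 in the small and 12.8% ± 2.83 in the large intestine (SD, n = 3 each), and the difference of 8.88 percentage points was smaller than the spread of the small intestine (two-sided exact permutation test, p = 0.3). This design cannot reach a p under 0.1. The groups overlapped, because the duodenum lay below the cecum and colon. Without the ileum the difference was 3.43 points (exact permutation test, p = 0.6). With every cell thinned to 2000 UMIs, which removes the effect of depth on detection, the shares were 5.46%, 7.92%, and 15.8% in the duodenum, jejunum, and ileum and 6.73%, 7.56%, and 4.75% in the cecum, colon, and rectum. The ileum remained the highest and the rectum the lowest.

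**Figure D2:**
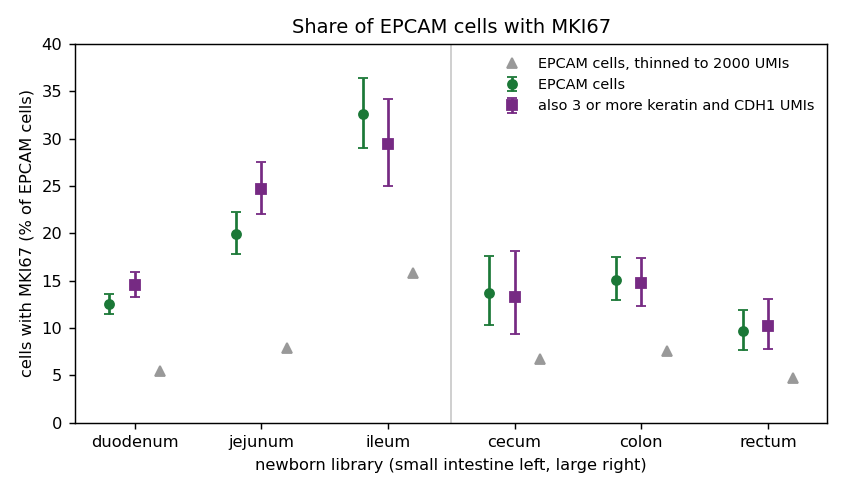
Percentage of EPCAM cells with MKI67 (y axis) in the 6 newborn libraries (x axis), for all cells of the gate, for cells that also passed the keratin gate (bars are exact binomial 95% intervals), and after thinning each cell to 2000 UMIs. The ileum lies highest at 32.6% and the rectum lowest at 9.66%, and every share falls after thinning.

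MKI67 counts graded the other mitotic genes. In the duodenum, the 57 genes of the mitosis list with a row summed to 315 CPM in cells without MKI67, 1907 CPM in cells with 1 UMI, 4356 with 2, 6160 with 3 to 5, and 10545 with 6 or more. The rectum went from 263 through 1645, 3103, and 5719 to 7393 CPM. In each of the 6 libraries the sum was higher in every class of more MKI67 UMIs than in the class before it. These classes are cut by MKI67, so no test is given. TOP2A, the topoisomerase that untangles sister chromatids, was detected in 45.4% of duodenal cells with 1 MKI67 UMI and in 100% of those with 6 or more, but also in 8.41% of those without MKI67. Across libraries, 5.14% (rectum) to 17.7% (ileum) of the contrast cells carried TOP2A, so the contrast was not free of cycling cells.

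**Figure D3:**
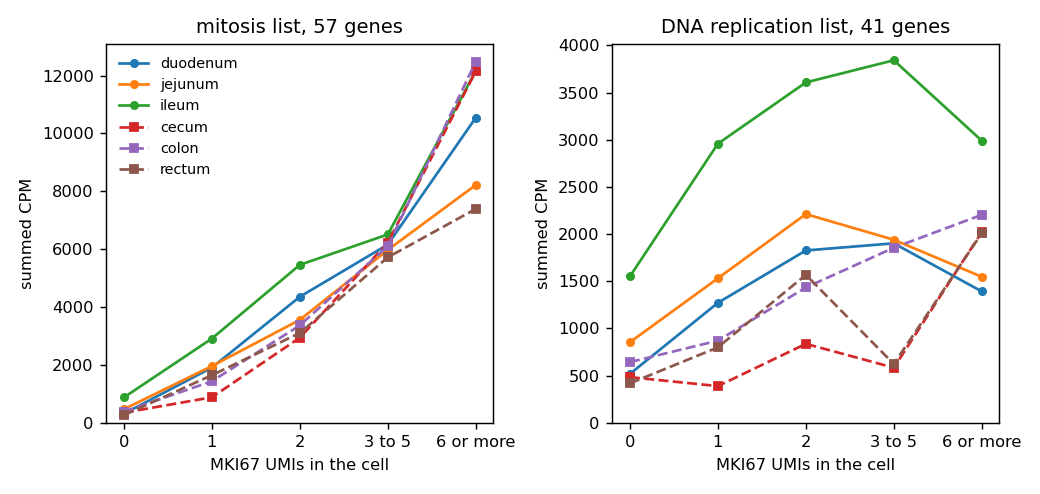
Summed CPM (y axes) of the mitosis list and of the DNA replication list against the MKI67 UMIs of the cell (x axes) in each newborn library. The mitosis sum is higher at each step in all 6 libraries and reaches 10545 CPM in the duodenum, while the replication sum is higher at each step only in the colon and is highest in the ileum.

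The cells were chosen by MKI67, a gene of dividing cells, so the other genes of the cell cycle are given without a test. The mitosis list summed to 5133, 4854, and 6495 CPM in proliferating cells of the duodenum, jejunum, and ileum, against 315, 469, and 877 CPM in cells without MKI67. In the cecum, colon, and rectum it summed to 3843, 4167, and 3194 CPM against 349, 384, and 263 CPM. With the keratin gate proliferating cells had 5097, 4877, and 5340 CPM in the duodenum, jejunum, and ileum. They had 2629, 3238, and 2945 CPM in the cecum, colon, and rectum. The cecum then stood at 7.56 in place of 11.0 times the level of the other cells. Of the 57 genes, 56 were higher in 6 of 6 libraries and CCNF in 5, and the median fitted log2 fold change was 3.56. Of all 11459 genes of the fit, 13.6% were higher in 6 of 6 libraries and 8.12% lower, and the median log2 fold change was -0.08.

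CENPF, a kinetochore protein, stood at 523, 344, and 587 CPM in proliferating cells of the duodenum, jejunum, and ileum and at 609, 642, and 546 CPM in the cecum, colon, and rectum. The cells without MKI67 had 15.5 to 66.3 CPM, so the classes did not overlap. TOP2A ranged from 213 CPM (rectum) to 492 CPM (ileum) in proliferating cells and from 7.32 to 30.7 CPM in the others. UBE2C, which feeds the ubiquitin ligase that ends mitosis, ranged from 71.6 to 357 CPM against 5.85 to 32.6 CPM. PTTG1, or securin, the inhibitor of chromatid separation, ranged from 82.6 to 318 CPM against 4.54 to 44.3 CPM.

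DNA replication genes were higher in proliferating cells by a smaller factor. The 41 genes summed to 1526, 1754, and 3278 CPM in the duodenum, jejunum, and ileum against 518, 854, and 1551 CPM in cells without MKI67. In the cecum, colon, and rectum the sums were 778, 1348, and 1042 CPM against 484, 643, and 418 CPM. The keratin gate took the ileum to 1905 against 1434 CPM, which is 1.33 in place of 2.11 times the level of the other cells, and the cecum from 1.61 to 1.19 times. Of 38 genes in the fit, 28 were higher in 6 of 6 libraries, none was lower in 6 of 6, and the median log2 fold change was 0.96. PCNA, the sliding clamp of DNA polymerases, had 209, 255, 554, 96.8, 162, and 132 CPM from duodenum to rectum, against 54.5, 106, 187, 51.2, 58.7, and 44.5 CPM. The replicative helicase subunit MCM5 had 26.2 (cecum) to 223 CPM (ileum) against 19.2 to 122 CPM, and in the cecum the classes were close, at 26.2 and 25.8 CPM.

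The ratio of the replication to the mitosis sum was 0.297 in the duodenum, 0.361 in the jejunum, 0.505 in the ileum, 0.203 in the cecum, 0.324 in the colon, and 0.326 in the rectum. With the keratin gate the ileum went to 0.357, close to the jejunum at 0.364, and the other libraries stayed between 0.221 and 0.319. With at least 2 EPCAM UMIs the ileum stood at 0.390 and the jejunum at 0.364, and in cells with no marker of another cell type they stood at 0.381 and 0.330. The ileum was thus highest in these 2 settings by a smaller margin. Without the upper limit on genes the cecum went to 0.323 and was no longer the lowest, the duodenum then being at 0.241. Cells without MKI67 had replication sums above their mitosis sums in all 6 libraries.

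The other cycle lists went the same way in part. Of the 19 nucleotide synthesis genes in the fit, 8 were higher in 6 of 6 libraries (median log2 fold change 0.64), beside 13.6% of all genes of the fit. RRM2, a subunit of the enzyme that makes deoxyribonucleotides, had 54.4 to 161 CPM in proliferating cells and 10.9 to 57.7 CPM in the others. Of 20 chromatin genes of dividing cells, 19 were higher in 6 of 6 libraries (median 1.50), among them HMGB2, a DNA-bending protein, with 310 to 1162 CPM against 61.0 to 232 CPM. Of 20 genes of replication-linked DNA repair, 14 were higher in 6 of 6 (median 1.73), and BRCA2, which loads the recombinase at broken forks, had 42.3 to 99.6 CPM against 8.91 to 34.4 CPM. In proliferating cells of the ileum the keratin gate lowered the chromatin sum from 12337 to 8368 CPM and the repair sum from 722 to 462 CPM.

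Of 25 genes of G1 and S control, 13 were higher in 6 of 6 libraries (median 0.98), beside 13.6% of all genes of the fit. MYBL2, the activator of late cell cycle genes, had 38.3 to 123 CPM against 3.68 to 27.9 CPM, whereas the D-type cyclin CCND3 had 33.0 to 88.3 CPM against 42.6 to 73.3 CPM and did not separate the classes. Of 10 cell cycle inhibitors, 2 were higher and 1 was lower in 6 of 6 (median -0.34). These counts were near the 13.6% higher and 8.12% lower of all genes of the fit. CDKN1A, the inhibitor p21, was lower in every library, with 21.3 to 83.9 CPM in proliferating cells and 50.6 to 117 CPM in the others. CDKN2D, an inhibitor of the cyclin D kinases, was higher in every library, with 23.4 to 47.5 CPM against 6.86 to 20.4 CPM.

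Genes outside the gate and these cycle lists were tested between the classes on UMIs summed per library and class, with the library as a block (edgeR quasi-likelihood test, Benjamini-Hochberg adjusted p under 0.05). Proliferating cells were higher for 836 of 11268 genes (7.42%) and lower for 1760 (15.6%). Under the keratin gate the shares were 6.44% higher and 11.3% lower of 10561 genes. The genes called higher included mitotic genes outside the lists, as given below. That part of the shares goes with the choice of cells. The division of cells by MKI67 also divides them by depth, and the part of depth in single calls was examined only by restricting cells to 5000 to 20000 UMIs, where 730 genes were higher and 1583 lower.

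Most enterocyte genes were lower in proliferating cells. Of 28 in the fit, 20 fell and none rose (median log2 fold change -1.26), and 15 fell with the keratin gate. The list summed to 0.197 (cecum) to 0.763 (ileum) times the level of the other cells. With the keratin gate the ileum was not lower, at 825 against 794 CPM. FABP1, the liver-type fatty acid binding protein of enterocytes, had 7882, 3689, and 7.78 CPM in proliferating cells of the duodenum, jejunum, and ileum and 988, 678, and 943 CPM in the cecum, colon, and rectum. The cells without MKI67 had 27194, 11105, 14.5, 6087, 1983, and 2446 CPM. FABP1 was thus lower in 6 of 6 libraries (log2 fold change -1.85 ± 0.17 SE, edgeR adjusted p = 2.8e-05), and in the ileum it was low in both classes. KRT20, a keratin of mature epithelium, had 78.6 to 391 CPM against 100 to 901 CPM (log2 fold change -1.24, adjusted p = 0.013, with the keratin gate 0.051).

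Apolipoprotein genes carry part of the enterocyte list. APOA4, a component of chylomicrons, had 204 and 267 CPM in proliferating cells of the duodenum and jejunum against 1277 and 1438 CPM, and at most 4.62 CPM elsewhere (log2 fold change -2.65 ± 0.19, adjusted p = 1.3e-07). APOA1 had 1200 and 2534 CPM against 7328 and 18960 CPM in these 2 libraries but did not pass the test (adjusted p = 0.0875), and in the colon it was higher, at 178 against 146 CPM. The retinol binding protein RBP2 had 2631 and 1864 against 10633 and 7798 CPM there (adjusted p = 0.079). Enterocyte transcripts were also part of the free RNA: 67.7% of duodenal and 25.5% of jejunal PTPRC barcodes without EPCAM had at least 2 UMIs over APOA1, APOA4, FABP2, and ALPI.

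Secretory genes were lower as well. Of 8 goblet cell genes, 7 fell and none rose, and 5 fell with the keratin gate. Of all genes tested, 15.6% fell, and 11.3% with the keratin gate. AGR2, a disulfide isomerase needed for mucin folding, had 2650, 1532, 1370, 843, 1719, and 2599 CPM from duodenum to rectum against 2541, 2915, 2336, 919, 2665, and 3541 CPM (log2 fold change -0.62 ± 0.12, adjusted p = 0.0027, up to 0.15 under the other settings), with the duodenum the exception. SPINK4, a secreted protease inhibitor of goblet cells, did not pass the test (log2 fold change -0.86, adjusted p = 0.15), being higher in proliferating cells of the duodenum and cecum. KLF4, a transcription factor of post-mitotic epithelium, was lower in 6 of 6 libraries, with 50.6 to 144 CPM against 53.7 to 168 CPM (log2 fold change -0.61, adjusted p = 0.0015).

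Of 6 enteroendocrine genes in the fit, 2 fell and none rose (median log2 fold change -2.46), beside 15.6% of all genes tested that fell. With the keratin gate 3 of 6 fell, beside 11.3% of all genes. The 2 called without that gate were PCSK1, a convertase that cuts prohormones, and NEUROD1, a transcription factor of these cells. NEUROD1 was named after its values were seen. Neither call held under every setting, with the adjusted p of PCSK1 at 0.070 without the ileum and up to 0.12 under the other settings, and that of NEUROD1 up to 0.066. CHGA, a protein of hormone granules, had 5.18, 33.5, 5.06, 0, 133, and 4.13 CPM against 80.6, 62.3, 867, 406, 661, and 123 CPM and did not pass the test (adjusted p = 0.051) although it was lower in 6 of 6 libraries. These levels rest on few cells. Cells with at least 2 UMIs over CHGA, CHGB, and NEUROD1 made up 0.418% of proliferating cells in the duodenum (2 of 479) and 0.509% of the others (17 of 3340), with overlapping intervals, and the intervals of the 2 classes overlapped in the other 5 libraries too.

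Gut hormones show how few cells can carry a called gene. MLN, the motility hormone motilin, had the most negative log2 fold change of the genes that the naming rule gave for this comparison (-8.67 ± 0.28, adjusted p = 1.1e-10), with 11 UMIs in 1224 proliferating cells and 17616 UMIs in 6677 others. Only 12 of the latter, 0.180%, had 10 or more MLN UMIs. Among proliferating cells 0 of 1224 did, which allows a share of up to 0.245%, so a difference in the share of motilin cells was not detectable at this depth. With cells split by TOP2A in place of MKI67 the difference did not pass the test (log2 fold change -2.91, adjusted p = 0.60). Of the 12 cells, 9 were scored as doublets, and without doublets 10 UMIs were left against 207, and the gene did not enter the fit. GIP, which was too rare for the fit and was named with the following hormones after their values were seen, had 7 UMIs against 9041, and 10 or more in only 2 cells, both without MKI67 and both scored as doublets. Without doublets GIP had 6 against 43 UMIs. GHRL (ghrelin) had 8 against 3902 UMIs, with 8 cells of 10 or more UMIs among 6677 and 0 among 1224. Of these 8 cells 7 were scored as doublets, and 8 against 42 UMIs were left without doublets. NTS (neurotensin) and SST (somatostatin) kept more UMIs, but in few cells. NTS had 4 against 4779 UMIs (log2 fold change -9.11, adjusted p = 0.00017), and 4 against 2384 without doublets. Cells of 10 or more NTS UMIs were 0 among 1224 and 10 (0.150%) among 6677, of which 5 were scored as doublets. A difference in their share was thus not detectable, as for MLN. SST had 27 against 7854 UMIs (log2 fold change -5.91, adjusted p = 0.0016), and 7 against 1869 without doublets. Cells of 10 or more SST UMIs were 1 (0.0817%) among 1224 and 5 (0.0749%) among 6677, so their share was not lower. Without doublets 1 such cell was left, and it had no MKI67.

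The colon held a proliferating cell with 99.8% of the 1299 GCG UMIs of its class. GCG, the gene of the glucagon-like peptides, had 768 CPM in proliferating colon cells and 224 CPM in the others. PYY, a hormone of the same distal cells, had 887 UMIs in all proliferating cells, of which the colon held 877, and 99.9% of these lay in 1 cell. In the ileum GCG had 2.72 against 1199 CPM. With doublets left out, GCG kept its 1310 UMIs in proliferating cells, so this colon cell was not scored as a doublet.

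Of 25 crypt stem genes in the fit, 2 rose and 1 fell (median log2 fold change 0.22). The number that rose was near the 7.42% of all genes tested. The list summed to 2.53, 1.92, 0.872, 1.47, 1.01, and 1.30 times the level of the other cells from duodenum to rectum, and with the keratin gate to 1.07 (ileum) to 2.43 (duodenum) times. OLFM4 held a large part of these sums, with 999 of 1895 CPM in the duodenum and 10110 of 10549 CPM in the rectum. CDCA7, a Myc target, had 71.2, 105, 142, 26.2, 88.6, and 35.8 CPM from duodenum to rectum against 25.5, 63.2, 105, 24.8, 67.9, and 25 CPM (log2 fold change 0.52, adjusted p = 0.012), and this did not hold with the keratin gate (adjusted p = 0.66). The others were EPHB2, a receptor that keeps cells in the crypt, with a log2 fold change of 0.68, and CLCA4 with -2.0, both named after their values were seen. Both calls were lost without some single libraries (adjusted p up to 0.15). They were also lost under several other settings (adjusted p up to 0.11 for EPHB2 and 0.18 for CLCA4), for CLCA4 the keratin gate among them. OLFM4, a marker of crypt base cells, had 999 and 977 CPM in proliferating cells of the duodenum and jejunum against 277 and 351 CPM. In the ileum it had 1614 against 1752 CPM, and in the cecum, colon, and rectum 5872, 5676, and 10110 against 3580, 5554, and 7782 CPM. OLFM4 was thus higher in 5 of 6 libraries, but the difference did not pass the test (log2 fold change 0.58 ± 0.28, adjusted p = 0.21).

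Counted by cells, crypt stem transcripts marked more of the proliferating cells in every library but the ileum. The intervals of the classes also overlapped in the cecum and colon. The differences were largest in the duodenum and jejunum. At least 2 UMIs over LGR5, OLFM4, ASCL2, and SMOC2 were found in 47.0% of proliferating and 13.3% of other cells in the duodenum, and in 58.9% and 24.3% in the jejunum. Thinned to 2000 UMIs the shares were 27.8% and 7.39%, and 35.5% and 13.1%. The ileum had 50.7% and 50.9%, but 89.1% and 75.1% with the keratin gate, and 42.4% and 38.5% after thinning. The cecum had 64.0% (49.2 to 77.1) and 48.7% (43.1 to 54.4), and the colon 74.1% (66.3 to 81.0) and 66.1% (62.7 to 69.3). The rectum had 83.1% and 66.2%. Thinned, the shares were 48.5% and 36.9% in the cecum, 58.9% and 53.7% in the colon, and 72.3% and 53.5% in the rectum. PTPRC barcodes without EPCAM had 0.255% to 16.6%, the highest in the rectum.

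Cells marked for both enterocyte and crypt stem transcripts were more frequent among the proliferating cells of the duodenum and jejunum. In the other libraries the intervals of the classes overlapped. In the duodenum 41.8% (37.3 to 46.3) of proliferating and 11.8% (10.8 to 13.0) of other cells were marked for both, and in the jejunum 39.9% (33.9 to 46.2) and 14.3% (12.2 to 16.6). The ileum had 14.1% in both classes, the colon 6.80% and 9.94%, and the rectum 1.30% and 0.972%. In the cecum 0 of 50 proliferating cells were marked for both, which allows a share of up to 6.0%, and 1.90% of the others. Enterocyte markers, with or without crypt stem markers, were found in 90.2% of proliferating and 92.2% of other duodenal cells, and in 47.6% and 74.4% after thinning. The PTPRC barcodes of the duodenum had 67.7%, and 14.3% after thinning, so the unthinned enterocyte share there is partly background. The jejunum had enterocyte markers in 72.5% of proliferating and 67.8% of other cells, but in 25.4% and 46.7% after thinning. The classes were thus close in unthinned enterocyte markers in the duodenum and jejunum. The double-marked shares there therefore largely repeat the crypt stem shares given above. They were not thinned, and whether the markers go together in cells was not tested. Nor was the share of double-marked cells that free RNA gives. Seen the other way, 33.6% of crypt stem-marked cells of the duodenum had MKI67, 37.6% in the jejunum, 32.5% in the ileum, 17.2% in the cecum, 16.7% in the colon, and 11.8% in the rectum.

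**Figure D4:**
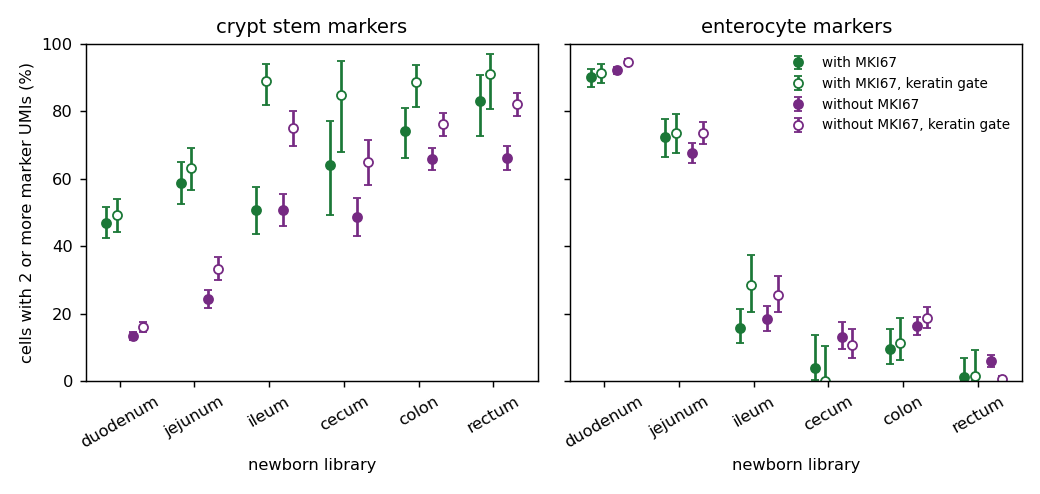
Percentage of cells with at least 2 UMIs over crypt stem markers (left) or enterocyte markers (right) in each newborn library (x axis), for cells with and without MKI67, before (filled) and after (open) the keratin gate. Bars are exact binomial 95% intervals. Crypt stem-marked cells make up 47.0% against 13.3% in the duodenum, and in the ileum the share rises from 50.7% to 89.1% with the keratin gate.

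Secretory transcripts were detected in some of the proliferating cells. SPDEF, a goblet cell factor and the only one of the chosen goblet markers with a row, was found at 2 or more UMIs in 2.0% (cecum) to 10.9% (colon) of proliferating cells, against 1.90% (cecum) to 15.2% (ileum) of the others. Thinned to 2000 UMIs the shares were 0.348% to 3.45% and 0.694% to 4.95%, so they depend on depth and are no measure of how many cells are goblet cells. In the ileum the shares were 4.69% (2.27 to 8.46) and 15.2% (12 to 18.9). No proliferating cell of the 1224 had 2 or more UMIs over the tuft cell genes POU2F3, DCLK1, and TRPM5, which allows a share of up to 0.245%. Of the 6677 cells without MKI67 only 2 did, so a difference between the classes was not detectable at this depth.

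Some genes of ribosome production were higher in proliferating cells. Of 24, 8 rose, none fell, and the others did not pass the test (median log2 fold change 0.32), beside 7.42% of all genes tested that rose. With the keratin gate 6 rose. NCL, or nucleolin, had 440, 499, 523, 365, 436, and 330 CPM from duodenum to rectum against 196, 227, 366, 232, 333, and 217 CPM. It was higher in 6 of 6 libraries (log2 fold change 0.60 ± 0.11, adjusted p = 0.00085). FBL, the methyltransferase fibrillarin, had 75.7 to 207 CPM against 47.0 to 123 CPM (log2 fold change 0.60, adjusted p = 0.0019). The list summed to 1.17 (colon) to 1.90 (duodenum) times the level of the other cells.

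Epithelial genes other than EPCAM were at similar or lower levels. Of 11, 5 fell and none rose. KRT8 had 855, 666, 585, 827, 786, and 857 CPM against 1083, 701, 874, 1311, 900, and 1265 CPM (log2 fold change -0.54 ± 0.09, adjusted p = 0.0005), and it was lower in 6 of 6 libraries. KRT18 and CLDN3, a tight junction claudin, had log2 fold changes of -0.50 and -0.37, and without 1 library their adjusted p reached 0.094 and 0.12. Of 14 Notch and fate choice genes, none rose and 2 fell, which is near the 15.6% of all genes tested that fell. With the keratin gate 2 of 12 in the fit rose and none fell, beside 6.44% of all genes that rose there. HES1, the Notch target that favors the absorptive fate, had 205 to 411 CPM against 131 to 392 CPM (adjusted p = 0.22, with the keratin gate 0.032). Of 20 niche receptor genes, none rose and 5 fell (2 with the keratin gate), and of 25 regional identity genes none rose and 4 fell, beside 15.6% of all genes tested that fell. Of 10 fetal-type epithelial genes, none rose and 2 fell, but with the keratin gate 1 rose and 1 fell. Of 19 dissociation response genes, 1 rose and 8 fell, and with the keratin gate 1 rose and 4 fell. HSPA1A, the heat shock protein of that list with the most UMIs, had 2029 to 5551 CPM against 1654 to 3945 CPM (adjusted p = 0.97).

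Markers of some other cell types moved with the classes. Of all genes tested, 7.42% rose and 15.6% fell. Of 10 B and plasma cell genes, 4 rose and none fell, and of the 5 left in the fit with the keratin gate none rose. The list summed to 4.86 (jejunum) to 2331 CPM (cecum) in proliferating cells and 4.18 to 1062 CPM in the others, and CD79A was at 0 in proliferating cells of the duodenum and jejunum. Of 10 endothelial genes, 5 fell, and with the keratin gate none did. They summed to 34.6 to 587 CPM against 113 to 808 CPM. Of 10 myeloid and mast cell genes, 7 fell, and 2 with the keratin gate. Of 6 fibroblast genes, 1 rose, FBLN1 (named after its values were seen, adjusted p = 0.031, without 1 library up to 0.24), and none of 7 smooth muscle genes passed the test. Of 6 T and NK cell genes, 1 fell and none rose, which is near the share of all genes that fell.

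The named genes with the largest increase outside the lists, among 484 that met the same criteria, included PIMREG, ENSBTAG00000020100, IQGAP3, DEPDC1, KNL1, CDCA2, CDCA3, HJURP, and TROAP. Most have roles in mitosis, so they go with MKI67 by the choice of cells as the mitosis list does. KNL1, a scaffold of the kinetochore, had 81.5, 62.2, 84.1, 58.5, 79.8, and 81.2 CPM from duodenum to rectum against 0.669 to 13.6 CPM. HJURP, the chaperone of the centromeric histone, had 26.0 to 49.5 CPM against 1.00 to 6.70 CPM. The log2 fold changes of these 9 were between 3.77 and 4.42, and between 3.74 and 4.56 with the keratin gate, and they are given as a description.

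The 10 named genes with the largest decrease, among 463 that met the same criteria, were of different kinds. Besides MLN and APOA4 they were C29H11orf86, CCL20, PHGR1, CCL21, IGFBP3, CAVIN2, MMRN1, and PTGDS. CCL20, a chemokine of the epithelium over lymphoid follicles, had 0.314, 2.43, 23.7, 0, 7.09, and 6.88 CPM against 5.16, 17.0, 83.6, 0.669, 30.2, and 28.2 CPM (log2 fold change -2.43 ± 0.22, adjusted p = 1.7e-06). PHGR1, an epithelial gene of the gut, had 7.57 to 76.8 CPM against 68.6 to 334 CPM (log2 fold change -2.39, adjusted p = 0.019, without 1 library up to 0.081). CCL20 and PHGR1 were also called with the keratin gate, as were MLN, APOA4, and C29H11orf86. With TOP2A in place of MKI67, CCL20 was not called (log2 fold change -1.45, adjusted p = 0.052). PHGR1 was not called in cells with no marker of another cell type (adjusted p = 0.092).

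CCL21, a chemokine of lymphatic vessels, had 1.18 (colon) to 78.4 CPM (duodenum) in proliferating cells and 6.49 to 292 CPM in the others (log2 fold change -2.59, adjusted p = 0.017). With the keratin gate its log2 fold change was -0.34 (adjusted p = 0.66). IGFBP3, CAVIN2, MMRN1, and PTGDS were not called with the keratin gate either (adjusted p = 0.13, 0.32, 0.18, and 0.44). CAVIN2 and MMRN1 are known from endothelial cells, and the endothelial list moved in the same direction as given above.

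Between the gut regions, the proliferating cells themselves were compared with 1 sum per library. Of 8831 genes tested between 3 small and 3 large intestine libraries, 34 (0.385%) were higher in the small and 97 (1.1%) higher in the large intestine. The keratin gate gave 218 (2.72%) and 241 (3.01%) of 8006 genes. The count also depended on single libraries, with 710 genes without the ileum, and 37 without the duodenum, 12 without the jejunum, 23 without the cecum, and 14 without the rectum. The genes named below were chosen by the size of their difference.

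The antimicrobial lectin REG3G was high in the small intestine. It had 6196, 11220, and 11591 CPM in proliferating cells of the duodenum, jejunum, and ileum and 6.05, 2.95, and 0 CPM in the cecum, colon, and rectum. The means were 9669 ± 3014 and 3.0 ± 3.02 CPM (SD, n = 3 each; edgeR adjusted p = 0.0021), and this call held without each library (adjusted p up to 0.029). In cells without MKI67 REG3G was high in the same 3 libraries, at 4429, 30134, and 31706 CPM. ENSBTAG00000005759, which the files give no symbol, had 6353, 6195, and 2536 CPM against at most 4.14 CPM in the large intestine.

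CPS1 and OTC, enzymes of successive steps, were higher in the same 3 libraries. CPS1, the mitochondrial enzyme that makes carbamoyl phosphate, had 403, 555, and 127 CPM in the duodenum, jejunum, and ileum and at most 1.77 CPM in the large intestine (362 ± 217 against 1.05 ± 0.930 CPM, adjusted p = 0.014). OTC, which uses that product to form citrulline, had 166, 215, and 95.7 CPM against 0, 4.14, and 0 CPM (adjusted p = 0.012). Both were at similar levels in the cells without MKI67, with CPS1 at 422, 440, and 101 CPM and OTC at 188, 163, and 85.4 CPM. Without 1 library the adjusted p reached 0.12 for CPS1 and 0.070 for OTC.

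CLDN15, the claudin of cation pores, had 348, 388, and 179 CPM against at most 6.05 CPM. CCL25, the chemokine that draws lymphocytes to the small intestine, had 403, 439, and 126 CPM against at most 6.5 CPM. MS4A18 had 147, 188, and 145 CPM against at most 5.32 CPM. MEP1B, a brush border protease subunit, and GATA5, a transcription factor, had 20.4 ± 4.19 and 35.9 ± 7.89 CPM in the small against 1.07 ± 1.01 and 3.0 ± 3.02 CPM in the large intestine. CFB, a complement factor, had 698 ± 154 against 87.8 ± 17.9 CPM (adjusted p = 0.0040). In all of these the 3 and 3 libraries did not overlap, which was part of the rule that named them. Without 1 library the adjusted p reached 0.12 for CCL25, 0.13 for GATA5, 0.097 for MEP1B, and 0.057 for MS4A18, while CLDN15 (0.048) and CFB (0.042) stayed called. With TOP2A in place of MKI67, CFB was not called (log2 fold change 2.28, adjusted p = 0.20), nor was CCL25 (adjusted p = 0.12).

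The beta-defensins DEFB13 and DEFB1, secreted antimicrobial peptides, were higher in the large intestine. DEFB13 had 190, 238, and 768 CPM in the cecum, colon, and rectum and 0, 0.27, and 0 CPM in the small intestine (adjusted p = 0.010). DEFB1 had 42.3, 67.4, and 79.8 CPM against at most 0.389 CPM (adjusted p = 0.0021). Beta-defensins form a large gene family in cattle, so reads of near-identical copies may be placed with another member. FUT6, a fucosyltransferase, had 179, 71.5, and 614 CPM against at most 0.471 CPM, and AQP8, a water channel of colonic epithelium, had 52.4, 73.9, and 68.8 CPM against at most 1.89 CPM. SPTSSB, a subunit of the enzyme that starts sphingolipid synthesis, had 118 ± 74.4 against 1.01 ± 1.49 CPM. Without 1 library the adjusted p reached 0.13 for DEFB13, 0.12 for AQP8, and 0.19 for SPTSSB, while DEFB1 stayed called (0.028). With TOP2A in place of MKI67, DEFB1 was not called (log2 fold change -5.09, adjusted p = 0.23), nor was AQP8 (adjusted p = 0.11).

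Of the named genes, 5 had no UMI in the small intestine. CHST4, a sulfotransferase, had 133 UMIs in the large and 0 in the small intestine, which makes it at least 192-fold higher against a floor of 3 UMIs over the small intestine. ENSBTAG00000052826, ENSBTAG00000053405, ENSBTAG00000053103, and ENSBTAG00000054561 were at 0 in the small intestine and at least 328-fold, 185-fold, 127-fold, and 79.5-fold higher in the large intestine. In cells without MKI67, ENSBTAG00000052826 was at 0, 0.284, and 4.16 CPM in the small and 46.9, 77.6, and 121 CPM in the large intestine. Without 1 library the adjusted p of CHST4 reached 0.19 and that of FUT6 0.20. Of the 4 genes without a symbol, ENSBTAG00000052826 stayed called (0.029), and the others reached 0.078 to 0.18.

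**Figure D5:**
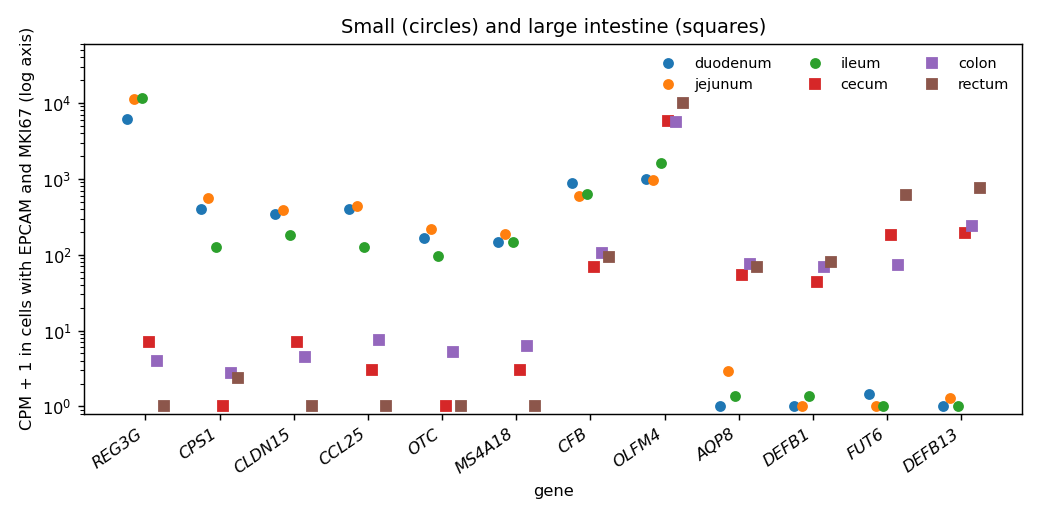
CPM + 1 (log axis) of 12 genes in cells with EPCAM and MKI67, with a point for each newborn library, circles for the small and squares for the large intestine. REG3G, CPS1, CLDN15, CCL25, OTC, MS4A18, and CFB lie higher in the small intestine, and OLFM4, AQP8, DEFB1, FUT6, and DEFB13 lie higher in the large intestine.

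Of the crypt stem genes, OLFM4 differed by region. It averaged 1197 ± 361 CPM in proliferating cells of the small and 7219 ± 2505 CPM in those of the large intestine (log2 fold change -2.75 ± 0.35, adjusted p = 0.012), without overlap. HOPX, a marker of slowly cycling cells, went the other way, at 256 ± 56.4 against 50.2 ± 27.6 CPM (adjusted p = 0.036, with the keratin gate 0.051). ASCL2, the stem cell transcription factor, had 58.9 ± 17.4 and 47.6 ± 27.1 CPM and did not differ beyond its spread (adjusted p = 0.92). LGR5, the receptor that marks crypt base stem cells, had only 24 UMIs in the small and 17 in the large intestine, too few for the fit. ANXA1, an annexin of the fetal-type list, had 30.2 ± 12.7 against 219 ± 59.8 CPM (adjusted p = 0.010). The cyclin CCND2 had 17.4 ± 7.08 against 69.1 ± 17.1 CPM (adjusted p = 0.024). Without 1 library the adjusted p reached 0.096 for OLFM4, 0.23 for HOPX, 0.066 for ANXA1, and 0.18 for CCND2.

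Mitosis and replication genes were at higher levels in the small intestine, but few passed the test. For 36 of 57 mitosis genes the 3 small intestine libraries lay above the 3 large intestine libraries, and for none below, beside 20% above and 8.92% below of the 8833 genes in this fit. SPC24, a kinetochore subunit, was the only one called, with 233 ± 29.4 against 95.8 ± 9.26 CPM (adjusted p = 0.032, without 1 library up to 0.19). TOP2A had 440.5 ± 57.1 against 262 ± 43.9 CPM (adjusted p = 0.18), and UBE2C 286 ± 77.4 against 120 ± 42.4 CPM (adjusted p = 0.13). With the keratin gate 13 mitosis genes were called higher in the small intestine, TOP2A and UBE2C among them (adjusted p = 0.022 and 0.012). Of 37 replication genes, 18 lay above without overlap and none passed the test, against 4 called of 34 with the keratin gate. PCNA had 339 ± 188 against 130 ± 32.6 CPM (adjusted p = 0.15, with the keratin gate 0.0057). The share of cells with a single MKI67 UMI, 35.7% to 40.5% in the small and 44.0% to 51.9% in the large intestine, was higher in the large intestine.

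At a like number of MKI67 UMIs, the regions overlapped in cells with 3 or more and not in cells with 1 or 2. In cells with 3 to 5 the mitosis sum was 6160, 5975, and 6510 CPM in the duodenum, jejunum, and ileum and 6225, 6107, and 5719 CPM in the cecum, colon, and rectum. In cells with exactly 1 it was 1907, 1959, and 2911 against 881, 1435, and 1645 CPM. No test was made on these classes. With at least 2 MKI67 UMIs in all, the colon at 6864 CPM lay above the jejunum at 6235 CPM. Without the upper limit on genes the colon at 5877 CPM also lay above the jejunum at 5494 CPM.

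HOXA9 and HOXB9, homeobox genes of position along the body axis, did not follow the split by region. HOXA9 had 0.157 and 0.811 CPM in proliferating cells of the duodenum and jejunum, and 138, 179, 236, and 113 CPM in the ileum, cecum, colon, and rectum. HOXB9 had 0.157 and 0 CPM, and then 48.6, 141, 171, and 272 CPM. The ileum stood with the large intestine in both, and the region test did not call them (adjusted p = 0.62 and 0.34). Of the 13 regional identity genes in this fit 1 was called, GATA5, which was higher in the small intestine as given above. In cells without MKI67 the pattern was alike, with HOXA9 at 0.691 and 1.14 CPM in the duodenum and jejunum and at 141 to 234 CPM in the others.

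The difference between cells with and without MKI67 was itself compared between the regions. The class by region term was called for none of 11268 genes upward and for 6 (0.0532%) downward, with 755 at an unadjusted p under 0.05 in this edgeR fit and 1 upward and 10 downward calls by DESeq2. They were GCG, APOB, TMEM88, MX1, and DEFB7, together with VPREB3, a B cell gene outside the rule for named genes that is given because it completes the 6. Under the keratin gate 2 genes (0.0189%) were called upward and 5 (0.0473%) downward of 10561, and TMEM88, MX1, DEFB7, and VPREB3 were not among them (adjusted p = 0.78, 0.78, 0.18, and 0.84). Without the upper limit on genes 4 genes were called upward and 1 downward, and none of these was among the 6.

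By the same rule, EPCAM cells with MKI67 were found elsewhere in the series. The NB reticulum had 1717 among 4276 EPCAM cells (40.2%), the NB omasum 2250 among 7235 (31.1%), and the NB abomasum 68 among 4910 (1.38%). Their mitosis sums were 6336, 9358, and 6214 CPM, against 3194 to 6495 CPM in the 6 intestinal libraries. The keratin gate was applied only to these 6 libraries, where it gave 2629 to 5340 CPM. The 4 AD intestinal libraries held 69 in all, with 2 of 61 EPCAM cells in the duodenum, 21 of 314 in the jejunum, 26 of 411 in the cecum, and 20 of 237 in the colon. The stages differ in the animal and, as the methods describe, in dissociation, each with 1 library, so stage and these cannot be told apart and no test was made.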

How the data were processed

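The deposited files hold whole-number UMI counts per gene and barcode, which the authors made with Cell Ranger 3.1.0 on the ARS-UCD1.2 genome, without normalization. The annotation release and the use of strand are not given in the sources used here. All 15 libraries list 27270 genes. Counts were summed per library and class, over 6 libraries, and scaled to CPM. Genes were tested in R 4.3.3 with edgeR 4.0.16 (filterByExpr, TMM, robust quasi-likelihood, Benjamini-Hochberg, threshold 0.05), with the library as a block between the classes, because both classes come from the same library. DESeq2 1.42.0 was an alternative. For the share, an exact permutation test over libraries was used. The fits were tested on simulated data.

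Doublets, scored as in the Scrublet method and taken at a rate that grows with the number of barcodes, were kept, and leaving them out was an alternative. The study's limit of 40% mitochondrial UMIs was also an alternative. Smooth muscle barcodes had at least 2 UMIs each of MYH11 and ACTG2 and none of EPCAM or PTPRC. The members and gene lists were chosen with earlier results of these data known. Genes were named by rule, and 1 that the rule names is not reported here. Of a list, up to 6 with the highest CPM were named. For the classes, 10 in each direction by log2 fold change were named, with adjusted p under 0.05, 20 CPM in the higher class, and the same sign in 6 libraries. For the regions the rule asked for no overlap instead, and for the class by region term 5 in each direction were named. Of 517 listed genes, 19 had no row. The other libraries were used only for the share of cells with MKI67 and for the cycle lists, and no sequence is shown.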

Additional observations from a re-analysis of the deposited data

Results flagged for a closer look

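The class by region term, the log2 fold change between cells with and without MKI67 in the small intestine minus that in the large intestine, singled out 5 named genes. GCG had a term of -10.8, with 1 colon cell holding 99.8% of the GCG UMIs of the proliferating cells there. The GCG term stayed called without each single library, the colon among them (edgeR adjusted p up to 0.014). Without the colon, however, the large intestine held only 3 GCG UMIs in 2 proliferating cells and 4 UMIs in 4 other cells, all in the rectum. That fit is therefore weak evidence that the term does not rest on the colon cell. It was not called without the upper limit on genes, with 2 or more MKI67 UMIs, or with TOP2A in place of MKI67. APOB had a term of -3.04, with 41.6 and 47.8 CPM in proliferating cells of the duodenum and jejunum against 258 and 275 CPM without MKI67, and with 17.1 against 11.2 CPM in the colon. Without the colon this term was not called (-2.24, adjusted p = 0.79). TMEM88 had a term of -2.23, MX1 one of -2.17, and DEFB7 one of -2.15, and these 3 were not called with the keratin gate (edgeR adjusted p = 0.78, 0.78, and 0.18) and were lost without some single libraries (up to 0.31, 0.50, and 0.33). MX1 had 56.5 and 83.9 CPM in proliferating cells of the cecum and rectum and at most 3.89 CPM in the other 4 libraries.

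In data outside the intestine, 5 of 162 EPCAM cells of the NB liver library carried MKI67, which is 3.09% (exact binomial 95% interval 1.01 to 7.06). This passes the 1.85% that a count of 0 allows, but the interval holds that limit. The share of smooth muscle barcodes with MKI67 in the intestinal libraries was 2.94% to 5.0%, and the background in the liver library was not measured. The 5 liver cells had a mitosis sum of 3199 CPM against 325 CPM in the EPCAM cells without MKI67. Only 40.0% of the 5 carried any UMI of the mitosis list, so this sum does not describe all of them.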

How the results depend on the processing

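The difference in the share of EPCAM cells with MKI67 between small and large intestine kept its sign under every alternative, and without 1 library it was 3.43 to 13.5 percentage points. Between the classes, 2596 genes were called. There were 4749 without the limit on genes, 1645 with no marker of another cell type, and 1612 (without the duodenum) to 2382 (without the cecum) without 1 library. The libraries pair the classes, since both come from 1 suspension, and without the replicate block 276 genes were called (210 higher, 66 lower).

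Between the regions, 131 genes were called. The count was 278 without the limit on genes, 50 with 2 or more MKI67 UMIs, 353 with 2 or more EPCAM UMIs, 459 with the keratin gate, 344 with no marker of another cell type, and 539 with the keratin gate and no B or T cell marker, which was added after the data had been seen. It was 425 with DESeq2, 310 with no filter on low counts, and 12 to 710 without 1 library. For the class by region term, with 6 calls, the count was 5 without the limit on genes and 2 with TOP2A in place of MKI67, none of them among the 6, 1 with 2 or more MKI67 UMIs, 11 with DESeq2, 173 with no filter, and 3 (without the jejunum or the rectum) to 51 (without the ileum) without 1 library, with 18 without the duodenum. The term of GCG was 3.11 with TOP2A (adjusted p = 0.94), and that of APOB was 3.98 with 2 or more MKI67 UMIs (adjusted p = 0.85) and 6.09 in cells of 5000 to 20000 UMIs (adjusted p = 0.77). The causes were not tested. With DESeq2 size factors the median log2 fold change of all genes was -0.065 in place of -0.077 between the classes. The cecum, with 50 proliferating cells and 495917 UMIs, gave the shallowest sum of the region comparison.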
